A study of Mus musculus with 6 samples.

Results

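Tbx2 and Tbx3 encode closely related T-box transcription factors. They were examined here through the peak regions that lay within 100 kb of their annotated 5′ ends. The genes are 2 of 21701 protein-coding genes of the annotation. Their windows held 138 regions around Tbx2 and 124 around Tbx3, 262 of the 379158 regions in the 8 peak lists. The lists come from ChIP-seq of wild type B6CBAF1 mouse forelimbs of stage E12.5 (E12 in the labels), dissected into distal forelimb (DFL, with the future digits) and proximal forelimb (PFL, with the future arm and forearm). Each piece was profiled for H3K27ac, for H3K27me3 and for CTCF, with 1 library per mark and piece, made from pooled tissue according to the methods of the study. The study states that these data were published earlier, and it cites H3K27me3 to another source than H3K27ac and CTCF. The other 2 lists, of HOXA13 and HOXD13 in whole forelimbs one stage younger, are of no labelled sample and served only to place binding sites. With 1 library per group no p-value was computed, and all intervals below are 95% intervals that cover counting error only.

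T-box proteins bind DNA through a shared domain, and TBX2 and TBX3 act mainly as repressors of transcription. In the limb bud both genes are known for stripes of expression along the anterior and posterior margins, where they respond to Hedgehog and BMP signals and act on the identity of posterior digits. Loss of human TBX3 causes ulnar-mammary syndrome, with defects on the posterior side of the arm. Each gene lies beside another T-box gene that defines a limb, Tbx4 for the hindlimb beside Tbx2 and Tbx5 for the forelimb beside Tbx3. H3K27ac marks active promoters and enhancers, H3K27me3 is laid down by the Polycomb complex at silenced developmental genes, and CTCF binds at borders and anchors of chromatin domains. HOXA13 and HOXD13 are the transcription factors of the digit territory.

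Tbx2 (ENSMUSG00000000093.6) lies at chr11:85832551-85841948 of mm10 on the plus strand, with 1 annotated start site. Upstream, the body of Bcas3, a gene of another family on the same strand, covers most of the window and ends shortly before Tbx2 starts. A noncoding transcript, 2610027K06Rik, starts 328 bp upstream and is read the other way. Downstream, Tbx4 starts 53871 bp after Tbx2 on the same strand and ends at 83546 bp. Tbx3 (ENSMUSG00000018604.18) lies at chr5:119670669-119684724 on the plus strand, with 3 start sites over 349 bp. Upstream it has no protein-coding neighbour in the window, and the antisense transcript Tbx3os1 starts 696 bp inside the gene and runs back over the whole upstream side. Tbx5 starts 161999 bp downstream, outside the window. Regions near a shared start cannot be assigned to one of the overlapping transcripts, and regions on Tbx4 cannot be assigned to Tbx2.

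**Figure D1:**
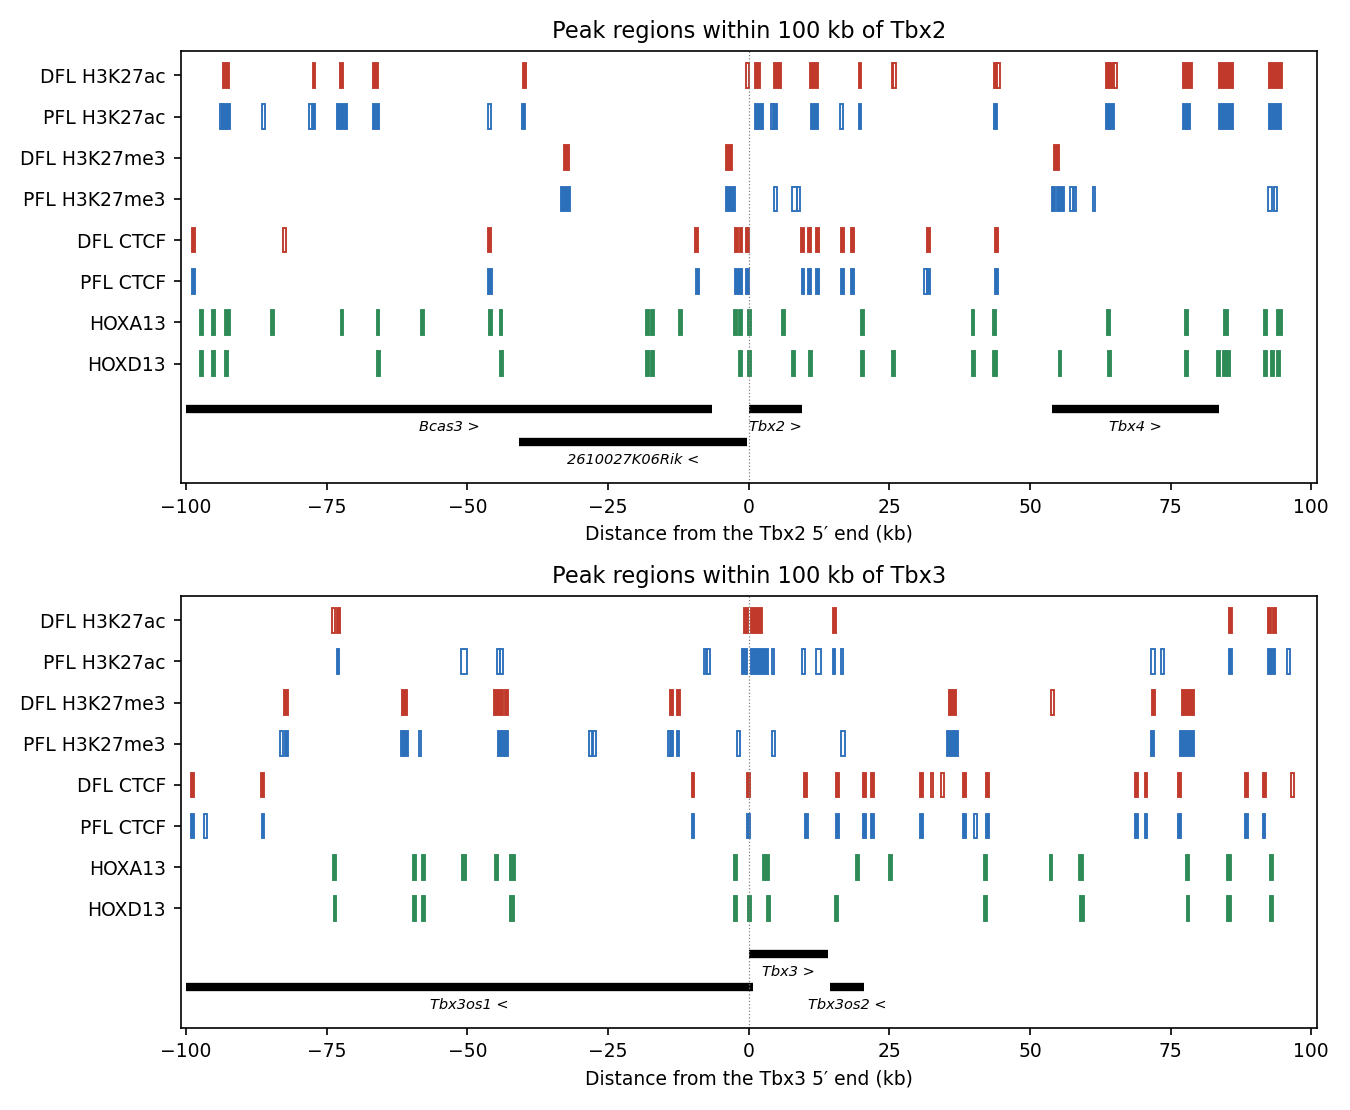
Regions of the 8 peak lists by distance in kb from the 5′ end of Tbx2 (top) and Tbx3 (bottom). DFL is red, PFL blue and the HOX13 lists green, filled boxes of DFL and PFL overlap a region of the other piece, open boxes do not, the shortest boxes are widened for sight, and black bars are genes with their direction. Around Tbx3, 12 of 19 PFL H3K27ac regions are open.

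The sites that the results turn on are shown first. For each gene the windows of 121 bp are centred on the HOXD13 summits at the strongest HOX13 regions by −log10 q, and on the strongest CTCF summit of DFL. They were read from the plus strand of GRCm38.p6, the assembly behind mm10. Capitals mark the motifs CAATAAA and TCGTAAA, the 2 forms bound by HOX13 proteins, in the HOXD13 windows and the core AGGNGGC in the CTCF windows, each searched on both strands.
Tbx2, HOXD13, 92.8 kb upstream in an intron of Bcas3, chr11:85739680-85739800: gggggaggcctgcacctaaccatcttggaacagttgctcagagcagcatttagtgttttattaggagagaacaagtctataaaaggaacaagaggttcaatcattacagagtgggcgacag
Tbx2, HOXD13, 43.6 kb downstream, intergenic, chr11:85876068-85876188: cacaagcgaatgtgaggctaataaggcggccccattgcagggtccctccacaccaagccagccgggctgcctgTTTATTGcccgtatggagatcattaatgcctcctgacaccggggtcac
Tbx2, HOXD13, 94.3 kb downstream, intergenic, chr11:85926830-85926950: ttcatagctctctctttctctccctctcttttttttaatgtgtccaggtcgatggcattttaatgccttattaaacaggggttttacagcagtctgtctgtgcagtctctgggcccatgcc
Tbx2, CTCF, 9.17 kb upstream in introns of Bcas3 and 2610027K06Rik, chr11:85823321-85823441: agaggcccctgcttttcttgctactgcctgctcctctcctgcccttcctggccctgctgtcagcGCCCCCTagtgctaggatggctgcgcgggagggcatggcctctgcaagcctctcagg
Tbx3, HOXD13, 73.5 kb upstream in an intron of Tbx3os1, chr5:119597074-119597194: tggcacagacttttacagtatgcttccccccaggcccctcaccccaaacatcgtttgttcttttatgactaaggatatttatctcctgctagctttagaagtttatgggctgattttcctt
Tbx3, HOXD13, 42.0 kb upstream in introns of Tbx3os1 and Gm16063, chr5:119628658-119628778: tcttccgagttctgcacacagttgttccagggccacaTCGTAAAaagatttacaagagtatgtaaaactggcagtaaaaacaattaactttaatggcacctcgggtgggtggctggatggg
Tbx3, HOXD13, 85.4 kb downstream, intergenic, chr5:119756054-119756174: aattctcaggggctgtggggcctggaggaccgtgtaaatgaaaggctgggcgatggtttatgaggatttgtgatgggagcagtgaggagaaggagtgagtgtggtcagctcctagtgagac
Tbx3, CTCF, 42.4 kb downstream, intergenic, chr5:119712995-119713115: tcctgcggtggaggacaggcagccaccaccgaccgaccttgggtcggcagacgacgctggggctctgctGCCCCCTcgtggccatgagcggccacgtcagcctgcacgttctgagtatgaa

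Of these, a HOX13 motif stood in the Tbx2 window at 43.6 kb and in the Tbx3 window at 42.0 kb upstream, and the CTCF core stood in both CTCF windows. The other HOXD13 windows held neither form. Among all HOXD13 regions 15.4% of such windows held one, and among all DFL CTCF regions 30.8% held the CTCF core. Around Tbx2 the HOX13 forms were found at 4 of 24 HOXD13 summits and 2 of 24 HOXA13 summits, and around Tbx3 at 2 of 13 and 3 of 17. These shares were near those of the whole lists, with 14.5% for HOXA13. A match is a match of letters and not a measured site.

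The state of the promoters was compared first, where a promoter is the stretch within 2 kb of any annotated start. Both genes carried H3K27ac and CTCF at the promoter in DFL and in PFL. Tbx2 had no H3K27me3 region there in either piece, and Tbx3 had one in PFL alone. These states depended on the width taken. Within 1 kb Tbx3 had no H3K27me3 region and Tbx2 had H3K27ac in DFL alone, and within 5 kb Tbx2 had H3K27me3 in both pieces. Among all promoters, 58% were acetylated in both pieces, 30% had CTCF in both, 16.2% had H3K27me3 in both and 4.01% had H3K27me3 in PFL alone. HOXD13 was bound at both promoters and HOXA13 at that of Tbx2, against 28.7% and 31.7% of all promoters, and the nearest HOXA13 summit to the Tbx3 start lay 2.32 kb upstream.

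The H3K27ac level was read at the summit. The peak caller's fold is the ratio of the fragment pileup at the summit to the local background, which it estimated from the surrounding kilobases of the same library. From the fold and its p-value the pileup and the background were solved, and both are given as multiples of the lowest background found in that library (12.49 fragments for DFL H3K27ac and 11.9 for PFL). At Tbx3 the strongest promoter summit stood at 12.97 times the lowest background in DFL (pileup 162, 1.09 kb downstream) and at 23.9 times in PFL (pileup 284, 1.56 kb downstream). The DFL to PFL ratio was 0.542 (0.444 to 0.660). At Tbx2 the strongest promoter summit stood at 11.4 times in DFL (pileup 142, 1.36 kb downstream) and 16.5 times in PFL (pileup 196, 1.83 kb downstream), a ratio of 0.689 (0.551 to 0.859). The strongest summit of each promoter was higher in PFL, and neither interval reached 1. The Tbx2 summits were 477 bp apart, and nearer the Tbx2 start, 0.244 kb upstream, a region was called in DFL alone. The median ratio of the 37321 H3K27ac regions paired 1 to 1 between the pieces was 0.902, with 5th and 95th percentiles of 0.543 and 1.52. Of these pairs, 15.2% had a lower ratio than Tbx2. The Tbx3 ratio above is not of such a pair, because its DFL region overlaps PFL regions with summits at 0.614 and 1.56 kb downstream. In bulk pieces, fewer cells with the mark and less of it per cell cannot be told apart.

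The local background around the Tbx3 start differed more than the summits did. At the region that spans the start (summits 0.355 and 0.436 kb upstream) it was 3.59 times in DFL and 11.2 times in PFL, a ratio of 0.321 that was below those of all but 0.0482% of paired regions. At another promoter region of PFL, 0.614 kb downstream, it was 12.1 times, against 3.70 times at the DFL region there. At a pair of regions 15.3 kb downstream in DFL (15.2 kb in PFL), on Tbx3os2, it was 1 and 3.21 times. The last pair had a ratio of 0.312, below those of all but 0.0295% of pairs, where the median pair had 0.95. The signal around Tbx3 was thus higher in PFL over a stretch of kilobases. The deposited folds run the other way, with 3.45 in DFL against 1.91 in PFL at the promoter summits, because the fold is taken over that surrounding signal. At Tbx2 the background ratio at the promoter summits was 0.615 (5.12 and 8.33 times), below those of all but 2.30% of pairs.

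**Figure D2:**
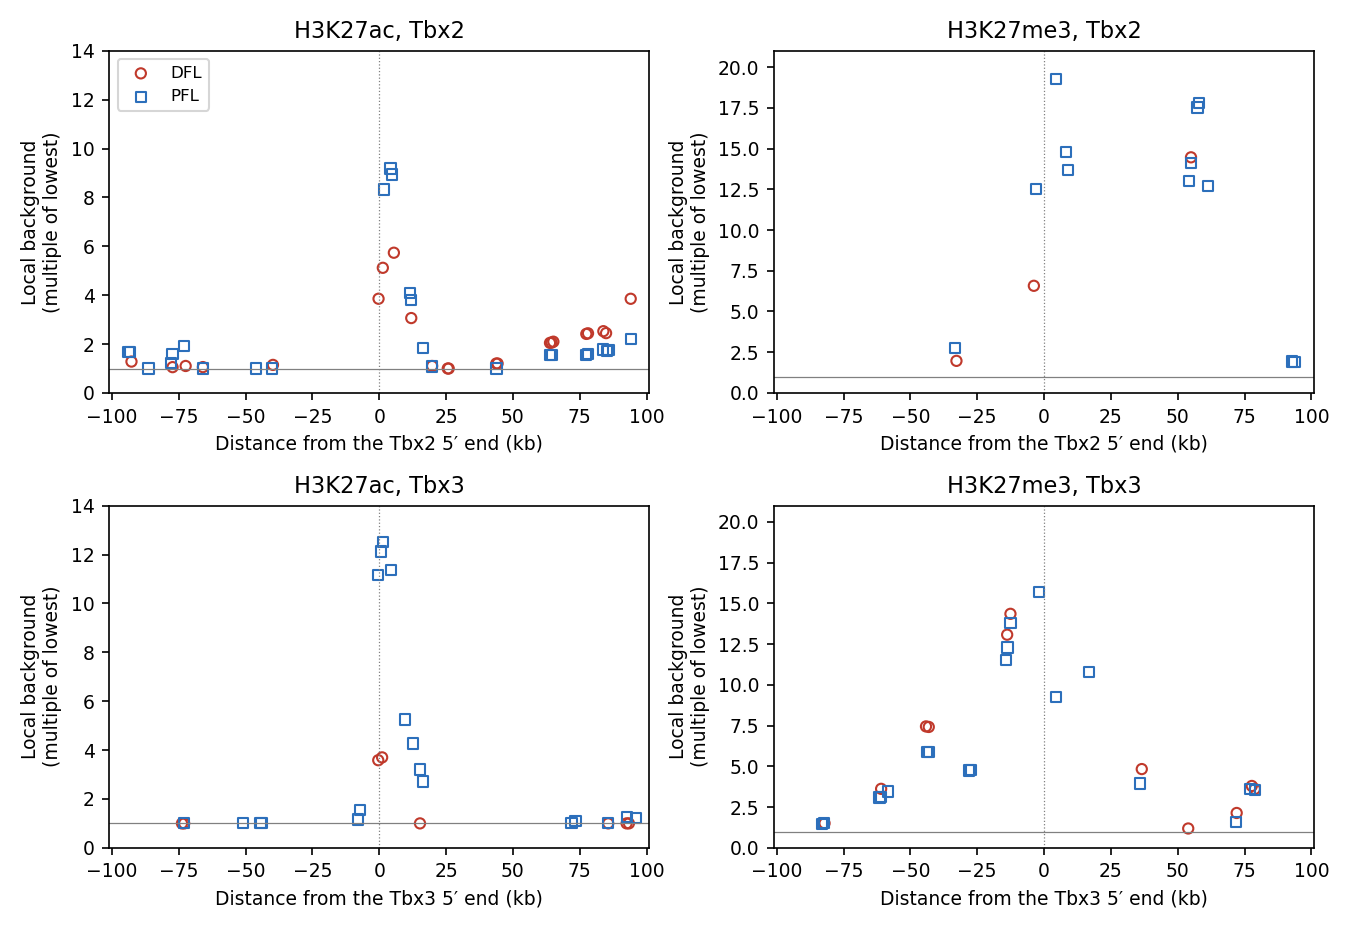
Local background around each region, in multiples of the lowest one in that library, by distance from the 5′ end in kb, for H3K27ac (left) and H3K27me3 (right) at Tbx2 (top) and Tbx3 (bottom). DFL regions are red circles, PFL regions blue squares and the grey line is 1, and at the Tbx3 start H3K27ac stands at 3.59 and 3.70 times in DFL and above 11 times in PFL.

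Over the whole window, Tbx3 had fewer H3K27ac regions in DFL than in PFL and Tbx2 did not lean clearly either way. Around Tbx3, 8 regions covered 4.28 kb in DFL and 19 covered 11.5 kb in PFL. The DFL regions made up 27.2% of this length, where the whole lists give 45.3%, and 29.6% of the regions, with an interval (15.9 to 48.5%) that holds 45.3%. The DFL minus PFL difference of -7180 bp was lower in 0.17% of genes and the DFL share of the length in 4.58%, while 71.2% of genes had more H3K27ac covered length in PFL. Around Tbx2, 22 regions covered 15.7 kb in DFL and 25 covered 16.3 kb in PFL, a DFL share of 49% of the length and 46.8% of the regions (33.3 to 60.8%). The Tbx2 window was well covered, with less covered length at 96.5% of genes in DFL and 94.9% in PFL, against 47.8% and 83.6% for Tbx3.

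Regions found in one piece alone gave the same contrast between the genes. Of the 8 DFL regions around Tbx3, 1 had no PFL counterpart, and of the 19 PFL regions 12 (63.2%) had no DFL counterpart, where 26.7% of all DFL and 38.1% of all PFL H3K27ac regions had none. For Tbx2 these were 5 of 22 (22.7%) and 6 of 25 (24%). The 12 PFL-only regions of Tbx3 lay on the gene, just upstream and far off. On the gene and just after it, summits lay 4.42 kb downstream at 15.1 times the lowest background, 9.71 kb at 7.997 times, 12.6 kb at 7.91 times and 16.5 kb at 5.64 times. The pileups fell with distance from the promoter and their local backgrounds did as well, from 11.4 to 2.72 times. Just upstream, a pair of summits lay at 7.87 kb (3.62 times) and 7.09 kb (3.20 times). Farther upstream in introns of Tbx3os1, summits lay at 50.8 kb (2.95 times), 44.4 kb (2.69 times) and 44.0 kb (3.03 times). Far downstream, they lay at 71.9 kb (3.54 times), 73.4 kb (2.36 times) and 96.0 kb (3.03 times). All 12 exceeded 2.001 times, the lowest pileup that DFL could call over its lowest background. The intervals at 44.4 kb upstream (1.843 to 3.803) and 73.4 kb downstream (1.566 to 3.407) reach below it. Where the DFL background is higher, as at the start, a higher pileup is needed for a call. The DFL-only region lay 73.8 kb upstream with 2.16 times and −log10 q of 2.05, just above the lowest pileup PFL could call (2.02 times), and it overlapped both HOX13 lists.

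**Figure D3:**
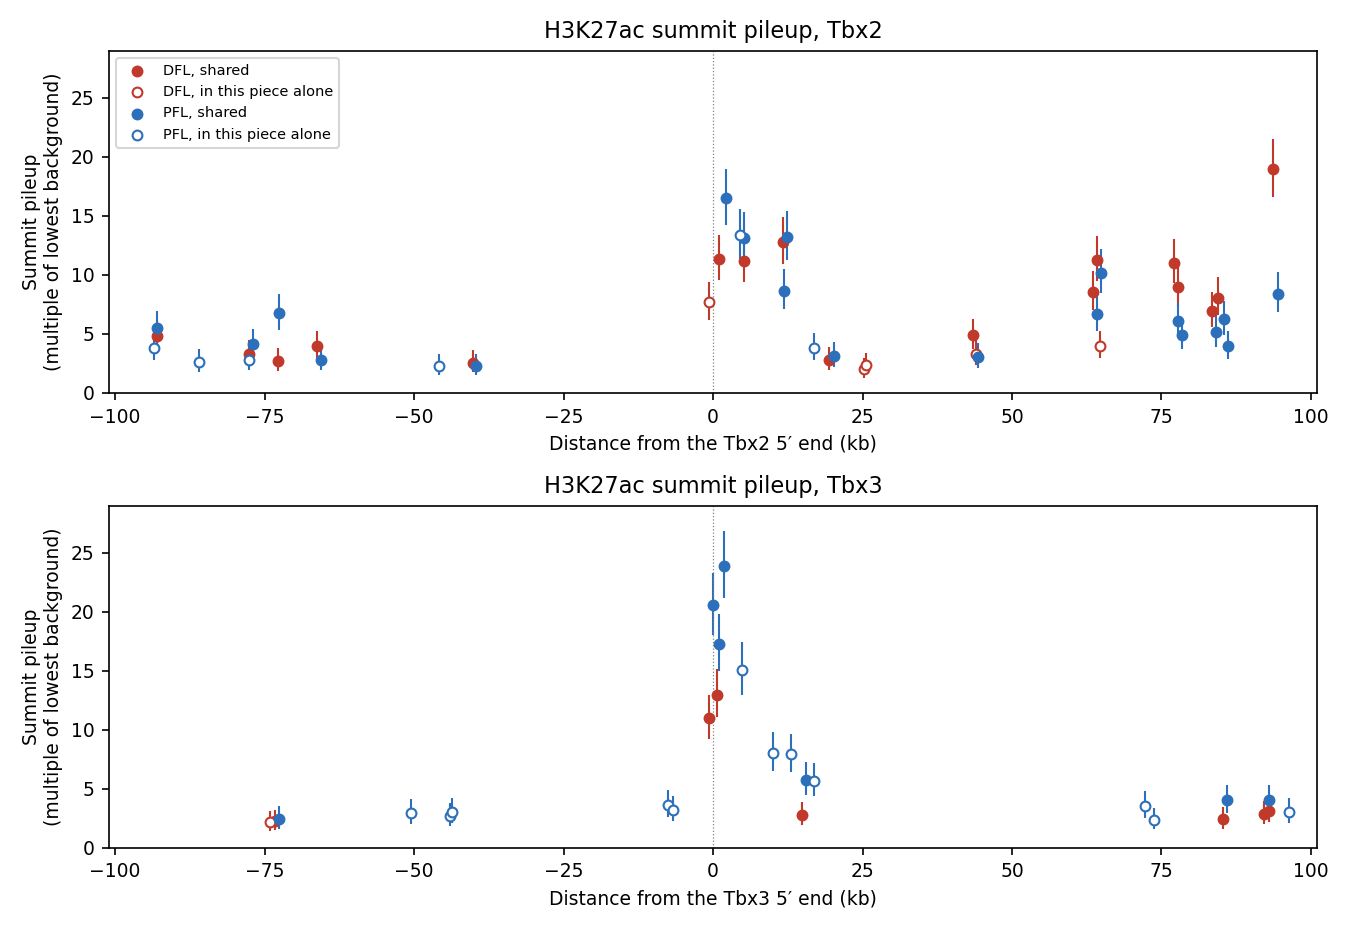
Summit pileup of every H3K27ac region in multiples of the lowest background in that library, by distance from the 5′ end in kb, with exact Poisson 95% intervals as bars. Red is DFL, blue PFL, open points have no counterpart in the other piece and the points of the pieces are set slightly apart. Around the Tbx3 start PFL reaches 23.9 times and DFL 12.97 times, and 94.1 kb downstream of Tbx2 DFL reaches 18.97 times and PFL 8.42 times.

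Around Tbx2 the regions of one piece alone were split by side. The 5 DFL-only regions lay at or downstream of the start. One stood 0.244 kb upstream of the start (chr11:85832121-85832472), with fold 1.97 and −log10 q of 7.21, on the CTCF and HOXD13 regions of the promoter. Its pileup of 7.69 times the lowest background was measured over a local background of 3.86 times. The others lay 25.6 kb, 26.0 kb, 44.3 kb and 65.1 kb downstream, with 2.001, 2.40, 3.28 and 4.003 times. The region at 25.6 kb (−log10 q of 1.41) lay below 2.02 times, the lowest pileup PFL could call. The interval at 26.0 kb (1.62 to 3.428) reaches below it. Of the 6 PFL-only regions, 4 lay upstream in introns of Bcas3, at 93.8 kb, 86.3 kb, 78.0 kb and 46.2 kb, with 3.79, 2.61, 2.78 and 2.27 times. The remaining pair lay 4.20 kb downstream in an intron of Tbx2 (13.4 times, over a background of 9.18 times) and 16.5 kb downstream (3.79 times). All 6 exceeded 2.001 times, the lowest pileup DFL could call. The intervals at 86.3 kb (1.773 to 3.704), 78.0 kb (1.912 to 3.901) and 46.2 kb (1.498 to 3.307) reach below it.

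The shared regions of Tbx2 also differed by position. The 3 pairs on the gene and just after it had ratios below 1 (0.689 to 0.9), where 68.4% of all H3K27ac pairs were lower in DFL. Their intervals spanned 1 at 5.49 kb (0.674 to 1.08) and 19.8 kb (0.55 to 1.47). The 5 pairs upstream had ratios from 0.404 to 1.44. The pair at 43.8 kb, between Tbx2 and Tbx4, was higher in DFL (ratio 1.61, 1.05 to 2.50). The 6 pairs on or beyond Tbx4 all had ratios above 1 (1.11 to 2.25), and their local backgrounds were higher in DFL too (1.31 to 1.75). Their intervals spanned 1 at 63.9 kb (0.954 to 1.75), 64.5 kb (0.863 to 1.42) and 83.8 kb (0.967 to 1.91). The strongest shared region of the window by DFL −log10 q (81.1) was there, 94.1 kb downstream of Tbx2 and past the end of Tbx4. Its summit stood at 18.97 times the lowest background in DFL and 8.42 times in PFL, a ratio of 2.25 (1.78 to 2.88) that was above those of 99.1% of pairs. Another pair of strong regions stood in a Tbx4 intron, with 11.1 times in DFL and 6.06 times in PFL at 77.5 kb (ratio 1.82, 1.36 to 2.46), and 8.97 and 4.88 times at 78.1 kb (ratio 1.84, 1.33 to 2.57). The region at 64.5 kb had the highest fold of the Tbx2 window in both pieces (5.31 and 6.23), and its summits did not differ beyond their interval (11.3 and 10.2 times, ratio 1.11, 0.863 to 1.42). The third strongest shared region lay 12 kb downstream, just after Tbx2, at 12.8 times in DFL, and overlapped PFL summits of 8.67 times (11.5 kb) and 13.2 times (12 kb). On the upstream side, the pair at 72.4 kb in DFL (72.9 kb in PFL) went the other way most clearly, with 2.72 against 6.73 times (ratio 0.404, 0.262 to 0.611), and its summits were 492 bp apart.

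The shared regions of Tbx3 were few, and on the scale of the lowest background 3 of the 4 pairs were lower in DFL beyond their intervals. Besides the promoter pair (10.97 and 20.5 times, ratio 0.534, 0.430 to 0.661) and the pair on Tbx3os2 (2.80 and 5.72 times, ratio 0.489, 0.316 to 0.746), the pair at 85.7 kb downstream in DFL had 2.40 and 4.04 times (ratio 0.594, 0.364 to 0.957). That interval ends near 1. With the median pileup of shared regions as the scale, the ratio at 85.7 kb was 0.67, without an interval. The fourth, 72.9 kb upstream, had 2.24 and 2.44 times, with an interval that spans 1 (ratio 0.918, 0.526 to 1.60). This ratio was above those of 53.4% of pairs, and it was 1.03 with the median pileup of shared regions as the scale. The DFL regions at 92.5 kb and 93.4 kb, the latter the third strongest shared one by −log10 q (7.14), met a single PFL region of 4.04 times with 2.88 and 3.12 times. In all, 4 of 4 Tbx3 pairs had ratios below 1, with a median of 0.564, against 68.4% of all pairs, and 9 of 15 Tbx2 pairs were higher in DFL, with a median of 1.13.

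**Figure D4:**
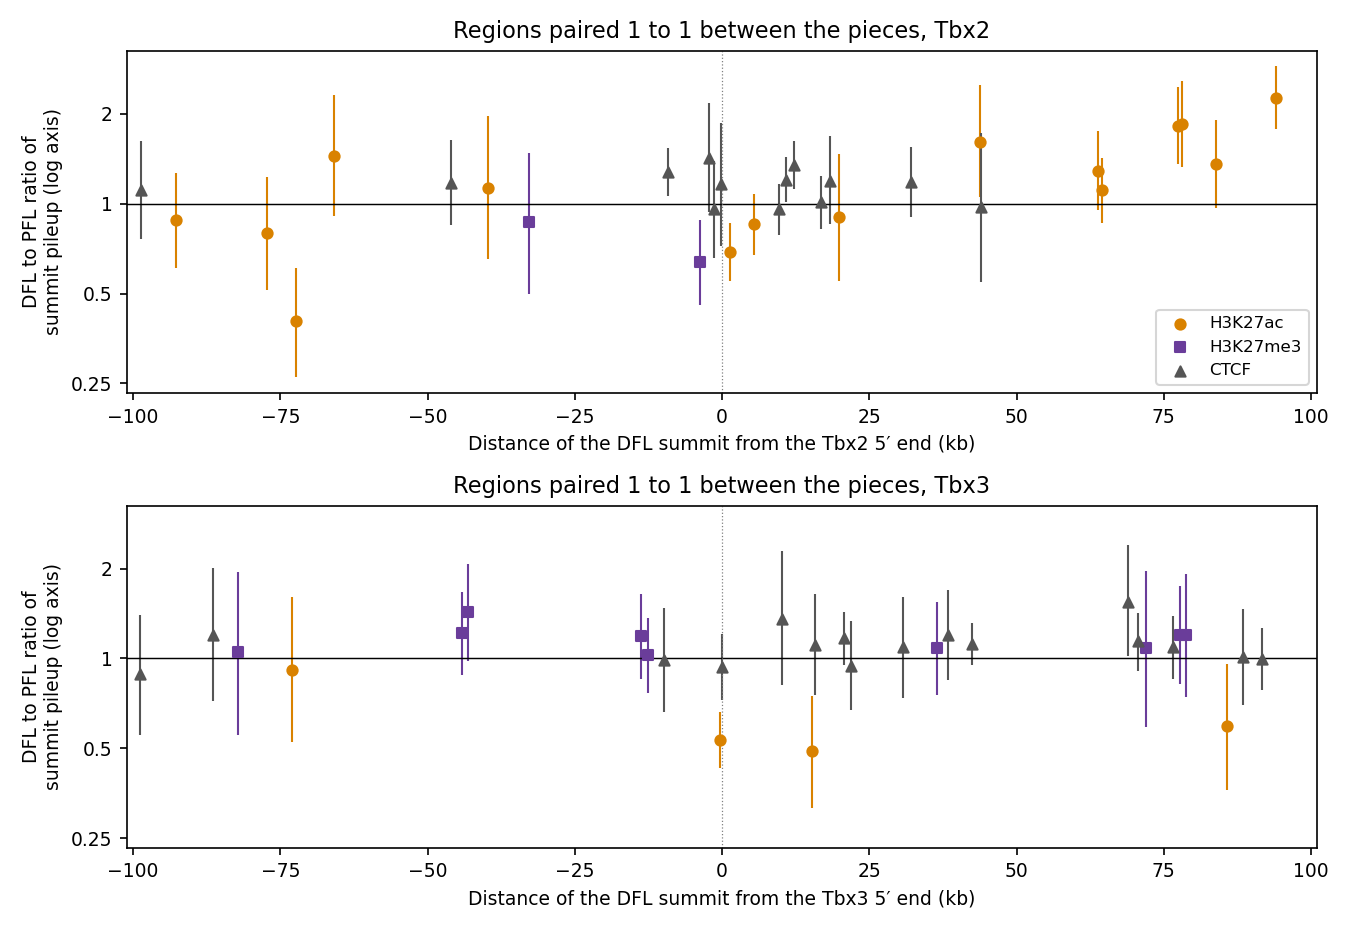
DFL to PFL ratio of summit pileup, each taken over the lowest background of the library, on a log axis, for regions paired 1 to 1, by distance of the DFL summit from the 5′ end in kb. Orange circles are H3K27ac, violet squares H3K27me3 and grey triangles CTCF, with exact binomial 95% intervals. At Tbx3 the H3K27ac ratios lie from 0.489 to 0.918 and the H3K27me3 ratios from 1.03 to 1.43.

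The pieces were checked against marker genes by H3K27ac covered length within 50 kb. Among all genes 64.4% had more in PFL and 18.2% more in DFL. Of 5 distal limb markers (Hoxa13, Hoxd13, Msx1, Msx2 and Sall1) 4 had more in DFL, and all 5 proximal markers (Meis1, Meis2, Shox2, Pkdcc and Irx3) had more in PFL. Muscle markers moved in the direction of the Tbx3 difference. All 4 (Myf5, Myod1, Pax3 and Pax7) had more in PFL, with 0 to 1649 bp in DFL and 1730 to 2414 bp in PFL, and Myod1 and Pax7 had 0 bp in DFL. The promoters of 3 of them were acetylated in PFL alone. More in PFL was also found for 3 of 4 endothelium, 3 of 3 nerve and 2 of 4 blood markers, and more in DFL for 3 of 4 ectoderm markers. The part of these cells in the Tbx3 difference was not tested.

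H3K27me3 was compared because Polycomb holds T-box genes silent where they are not used. The genes carried it in different ways. Tbx3 had it in separate regions upstream and downstream in both pieces, and Tbx2 had 3 regions in DFL and more in PFL. In DFL the upstream regions of Tbx3 stood at 82.1, 60.9, 44.2, 43.1, 13.8 and 12.6 kb, with none nearer to the start. Around Tbx3, 11 regions covered 8.20 kb in DFL and 19 covered 11.1 kb in PFL, a DFL share of 42.6% of the length. The covered length was higher than in 98.8% of genes in DFL and 98.5% in PFL. Around Tbx2, 3 regions covered 2.90 kb in DFL and 12 covered 8.39 kb in PFL, more than in 84.3% of genes in DFL and 95.9% in PFL. The DFL share of this length was 25.7%, where the whole lists give 39.1% and 55.5% of genes had more covered length in PFL. DFL regions made up 20% of the regions, with an interval (7.05 to 45.2%) that holds 39.1%. The difference of -5492 bp was lower in 0.479% of genes. The share of the length was lower in 20.1% of the 13094 genes with any H3K27me3 in the window, and it was 34.4% with lists of equal size. The H3K27me3 libraries were the shallowest, with a lowest background of 3.06 fragments in DFL and 4.75 in PFL. A region can thus be missed more easily in DFL.

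The H3K27me3 pairs of Tbx3 did not differ between the pieces beyond their intervals. All 9 ratios lay above 1, from 1.03 to 1.43, and all 9 intervals spanned 1, where the median of 6245 pairs was 0.943 and 60.4% were below 1. The highest local backgrounds in DFL stood 12.6 and 13.8 kb upstream, on Gm16064 and Tbx3os1, at 14.4 and 13.1 times the lowest background, and at the same places PFL had 13.8 and 12.3 times. The summits of the nearer pair stood at 26.4 and 25.7 times. The strongest regions by −log10 q were 77.7 kb downstream in DFL (fold 4.19, 17.0 times) and 36.0 kb downstream in PFL (fold 4.11, 16.9 times). The H3K27me3 ratios were above 1 and the H3K27ac ratios below it, but neighbouring regions share their signal and are not separate measurements.

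Of the 19 PFL H3K27me3 regions around Tbx3, 8 (42.1%) had no DFL counterpart, near the 44% of the whole list. For DFL it was 1 of 11 (9.09%, against 9.05%), which lay 53.9 kb downstream at 3.92 times. Upstream, the PFL-only regions lay at 83.1 kb (6.11 times), 58.5 kb (8.22 times), 28.1 kb (10.96 times), 27.3 kb (12.6 times) and 14.2 kb (17.5 times). Near the gene they lay 1.86 kb upstream (25.5 times), 4.46 kb downstream in an intron of Tbx3 (16.4 times) and 16.7 kb downstream on Tbx3os2 (18.96 times). The first of these is the promoter region, with fold 1.62 and −log10 q of 3.92 over a local background of 15.7 times, the highest of the window. Where the mark spreads so broadly a narrow peak barely rises above its surroundings, so the lack of a DFL region there is not a measurement of absent H3K27me3.

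At Tbx2, all 3 DFL H3K27me3 regions were shared and 8 of 12 PFL regions (66.7%) were not. Of all regions, 9.05% in DFL and 44% in PFL had no counterpart, and the Tbx2 counts are small. The region nearest the start had its summit 3.82 kb upstream in DFL (17.6 times) and 2.96 kb upstream in PFL (27.6 times), a ratio of 0.638 (0.456 to 0.883) whose summits were 854 bp apart. Of the PFL-only regions 3 lay in the gene itself, at 4.53 kb (29.7 times), 8.35 kb (26.8 times) and 8.83 kb (23.2 times). Their local backgrounds of 13.7 to 19.3 times were high, and the DFL list had no region there. The intron of Tbx4 held 3 more, at 57.4 kb (28.0 times), 58.0 kb (28.2 times) and 61.4 kb (23.4 times). The last pair, at 92.6 kb (6.11 times) and 93.7 kb (4.85 times), overlapped the H3K27ac regions past Tbx4, the former only in part. At the shared region in Tbx4 DFL reached 27.4 times over a background of 14.5 times.

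Both marks met in PFL around both genes. Around Tbx3, 5 of 19 PFL H3K27ac regions overlapped a PFL H3K27me3 region, at 44.4 and 44.0 kb upstream and 4.42, 16.5 and 71.9 kb downstream, while 0 of 8 DFL regions overlapped DFL H3K27me3. Around Tbx2 the counts were 2 of 25 and 0 of 22. Among all regions 3.91% of PFL and 2.15% of DFL H3K27ac regions did so. Whether the marks lay on the same chromosomes or in different cells of the piece cannot be told apart.

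CTCF was nearly the same in both pieces, in place and in level. Around Tbx2 each piece had 14 sites and 13 of them (1 without a counterpart each, 7.14%) were shared, with a median distance of 8 bp between the paired summits. Around Tbx3, 3 of 19 DFL sites (15.8%) and 2 of 18 PFL sites (11.1%) had no counterpart, where 11.3% and 8.21% of all sites had none. The ratios of the pairs lay from 0.956 to 1.42 for Tbx2 and from 0.885 to 1.55 for Tbx3, with medians of 1.17 and 1.1 against 1.1 for all 48219 pairs. The interval spanned 1 for 10 of 13 pairs of Tbx2 and 15 of 16 pairs of Tbx3. Each promoter was bound, Tbx3 with 17.9 times the lowest background in DFL and 19.1 times in PFL on the start itself, and Tbx2 with 6.03 and 5.20 times 0.158 and 0.164 kb upstream.

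The strongest sites stood on either side of Tbx2 and downstream of the start of Tbx3. At Tbx2 the site 9.17 kb upstream had the highest fold (17.2 in DFL and 17.6 in PFL), and a row of strong sites followed the gene at 9.65, 10.9, 12.3 and 16.7 kb downstream, with 30.4, 44.2, 41.1 and 27.8 times in DFL. The site at 12.3 kb lay in the shared H3K27ac region after the gene. No CTCF site of either piece stood between 44.0 kb and the end of the window at 100 kb, the side of Tbx4. At Tbx3 the strongest site lay 42.4 kb downstream (fold 15.8 and 15.3, at 46.4 and 41.6 times), followed by those at 20.6, 70.6, 76.5 and 91.6 kb with folds of 12.9 to 14.1 in DFL. Upstream of Tbx3 there were 3 DFL and 4 PFL sites in all, with folds of up to 6.86.

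HOXA13 and HOXD13 were placed next. Both genes stood high among all genes in HOX13 covered length. Tbx2 had 24 HOXA13 regions (9.78 kb, more than 99.6% of genes) and 24 HOXD13 regions (6.93 kb, more than 99.2%), and Tbx3 had 17 (7.77 kb, more than 98.9%) and 13 (5.22 kb, more than 98.3%). The lists overlapped at 17 regions of each around Tbx2 (70.8% of both lists), and at 11 around Tbx3 (64.7% of HOXA13 and 84.6% of HOXD13), against 62% and 80.8% genome-wide. The strongest region of the Tbx2 window, 92.8 kb upstream, had a fold of 8.58 for HOXA13 and 9.31 for HOXD13, ranked 1501st of 66761 and 1015th of 52660 by −log10 q, and overlapped a shared H3K27ac region (4.80 and 5.47 times). Next came the region at 94.4 kb downstream for HOXA13 (fold 5.70), which is the H3K27ac region highest in DFL, and that at 43.6 kb for HOXD13 (fold 6.87). At Tbx3 the leading regions were those at 73.5 kb upstream (fold 7.65) and 85.5 kb downstream (5.79) for HOXA13, and at 42.0 kb upstream (8.63) and 85.4 kb downstream (8.14) for HOXD13. The one at 42.0 kb upstream overlapped no H3K27ac region of either piece and lay beside the H3K27me3 regions at 43.1 kb (43.0 kb in PFL). At the Tbx3 start HOXD13 had a region 0.167 kb downstream (fold 3.42) that overlapped the CTCF site.

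H3K27ac regions were then asked for HOX13 regions. Around Tbx2, 12 of 22 DFL regions (54.5%, 34.7 to 73.1%) and 12 of 25 PFL regions (48%, 30 to 66.5%) overlapped one, and around Tbx3 4 of 8 (50%, 21.5 to 78.5%) and 4 of 19 (21.1%, 8.51 to 43.3%), against 38.7% and 30.5% of all regions. Of the 12 PFL-only regions of Tbx3, 1 overlapped one (8.33%, 1.49 to 35.4%), where 3319 of all 26481 PFL-only regions did so. The 4 intervals of all regions held the genome-wide value, and no departure from it was detectable with so few regions. Of the joint HOXA13 regions, 8 of 17 around Tbx2 and 4 of 11 around Tbx3 lay in H3K27ac of either piece, 0 and 1 in H3K27me3, and 8 and 5 in no region of any of the 3 marks. No share over all joint regions was taken beside these counts, so they only describe the windows.

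The other T-box genes set the members in their family. Of the 15 others on the list, from the mesoderm gene T to Tbx5, Tbr1 and Eomes, 7 were acetylated at the promoter in DFL and PFL, 1 (Tbx22) in PFL alone and 7 in neither. H3K27me3 stood at 7 promoters in both pieces and at 8 in neither, and in PFL alone, as at Tbx3, at 0 of the 15, where 4.01% of all promoters had it. Counted over all its annotated starts, Tbx4 had both marks in both pieces and both HOX13 factors, but not at the same start. Near its 5′ end, 53871 bp downstream of Tbx2, H3K27me3 stood at 55 kb in both pieces and HOXD13 at 55.3 kb. No H3K27ac summit lay between 44.3 and 63.9 kb in DFL or between 43.9 and 63.8 kb in PFL. For HOXA13, none lay between 43.7 and 64 kb. Tbx5 had H3K27ac without H3K27me3. Within 50 kb of the start, Tbx4 had 11693 bp of H3K27ac in DFL and 9146 bp in PFL, and Tbx5 12371 and 12689 bp, against 2907 and 7390 bp at Tbx3. The median DFL minus PFL difference of the list was -450 bp, against -243 bp for all genes, and 11 of the 15 had more in PFL, near the 64.4% of all genes.

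Genes of limb signalling, some known to act with or through TBX2 and TBX3, were read in the same way. Of 19, among them Shh, Ptch1, Bmp4, Hand2, Fgf8 and the cell cycle inhibitors Cdkn1a and Cdkn2a, 14 were acetylated at the promoter in DFL and PFL, 4 in neither and 1, Grem1, in PFL alone. Grem1, the BMP antagonist that TBX2 and TBX3 are known to affect in the limb bud, had 0 bp of H3K27ac in DFL and 3341 bp in PFL within the same distance. H3K27me3 stood in both pieces at 7 promoters, in PFL alone at 6 (Shh, Gli1, Bmp2, Hand2, Hoxd13 and Cdkn2a) and in neither at 6. The state of Tbx3, with H3K27ac in both and H3K27me3 in PFL alone, was thus shared with 4 of the 19, Gli1, Bmp2, Hand2 and Hoxd13, where 3% of all promoters had it. Cdkn2a, a target that TBX2 and TBX3 repress, had no H3K27ac in its 50 kb in either piece, and 1927 bp of H3K27me3 in DFL and 6311 bp in PFL.

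By covered length of the 8 lists within 50 kb, on a log2 scale with 1000 bp added, genes among the most like Tbx3 were Igdcc3, Creb3l1, Cdc42bpb and Alox12b (distances 0.451 to 0.736), and those most like Tbx2 were Calcoco1, Efna4, Gm21887, Gpr3 and Cd164l2 (0.850 to 0.897). Igdcc3 had 2714 bp of H3K27ac in DFL and 7615 bp in PFL. The members were not each other's nearest, with Tbx3 143rd in the order around Tbx2 and Tbx2 280th in that around Tbx3 (distance 1.48).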

How the data were processed

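ChIP-seq peak lists of 6 samples (H3K27ac, H3K27me3 and CTCF in DFL and PFL, 1 library each) and of HOXA13 and HOXD13 were used. Per the labels, the reads were processed with cutadapt, Bowtie, SAMtools and MACS2 on mm10. According to the methods of the study, peaks were called per library without input. The deposited fold is a ratio of summit pileup to local background, and the deposited −log10 p and −log10 q belong to it, as the authors' caller wrote them. The lists give no read totals.

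On the 19 autosomes and X, lines sharing or overlapping an interval were merged to regions with Python 3.11.15, pandas 2.3.3 and scipy 1.17.1. A region was shared if it overlapped the other piece's list by at least 1 bp. Pileup and background were solved from fold = (pileup + 1) / (background + 1) and the Poisson tail, kept with a misfit under 0.01 and divided by the library's lowest background, and the solver was tested on simulated data. Of 21755 GENCODE protein-coding genes, 54 with a symbol that was not unique were left out. Intervals are Wilson for shares, exact Poisson for pileups and exact binomial for ratios. Regions were named by rule: promoter regions, H3K27ac and H3K27me3 regions of one piece alone, the 3 strongest shared H3K27ac regions and the 2 strongest regions of each HOX13 list. Other regions were named after their values were seen. The members and gene lists were chosen with earlier results of these data known. Alternatives were other windows, thresholds, merging, overlap and scaling. Of the genes most like Tbx3, 1 is not reported here.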

Additional observations from a re-analysis of the deposited data

How the results depend on the processing

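With 1 library per mark and piece, no value here has a replicate check, and depth limits what H3K27me3 can show most, its libraries having the lowest backgrounds. No paired analysis was possible because each group had replicate 1 alone. Of 97 values recomputed for 26 results under other settings, 91 stayed and 6 moved. To stay meant within the counting interval for shares and within 1.5 times of the reported value for counts. For median ratios it meant within the standard deviation of the ratios of the pairs. The DFL share of H3K27ac covered length around Tbx3 stayed between 27.2 and 39.7%, the highest with a window of 200 kb. At a fold of at least 5 no H3K27ac region was left around Tbx3 and no H3K27me3 region around either gene, and the share of H3K27ac regions around Tbx2 that overlap HOX13 was 0% in DFL and 0% in PFL, each from 1 region. The share around Tbx3 in DFL was 0% with a window of 50 kb (3 regions), 80% with regions up to 1 kb apart merged (5 regions) and 13% (1 of 8) with a HOX13 summit inside the region. In PFL it was 8.33% with the window of 50 kb. The cause was not tested. With the median pileup of shared regions as the scale, the median H3K27ac ratio was 0.636 around Tbx3 and 1.27 around Tbx2, and the CTCF ratio around Tbx3 went from 1.1 to 0.974. On that scale 2 H3K27ac pairs passed 1, that of Tbx3 at 72.9 kb upstream (1.03) and that of Tbx2 at 19.8 kb downstream (1.01). Intervals of the pairs were not computed on that scale. Several CTCF pairs of both genes fell from above 1 to below it, such as that of Tbx3 at 42.4 kb downstream (1.12 to 0.987). Of the 6 samples, 3 had a region at the Tbx2 promoter within 1 kb and 6 within 5 kb (4 within 2 kb), and 4 and 5 at that of Tbx3 (5 within 2 kb).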
